A study of Mus musculus with 20 samples.

Results

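Corticosteroid signalling in sorted mouse keratinocytes was followed through 7 genes: the glucocorticoid receptor gene Nr3c1, the mineralocorticoid receptor gene Nr3c2, and the chaperone and cochaperone genes Hsp90ab1, Stip1, Ptges3, Fkbp4 and Fkbp5. They were taken by gene name from the count table, as 7 of its 25719 rows, and all 7 passed the filter on low counts.

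Corticosteroid receptors are transcription factors that wait in the cytoplasm for their hormone, held by the chaperone HSP90. The receptor first passes from HSP70 to HSP90 through the adaptor STIP1 (also called HOP), and the cochaperone p23, encoded by Ptges3, then stabilises the complex that can bind hormone. FKBP51, encoded by Fkbp5, lowers the receptor's affinity for hormone, and its exchange for FKBP52, encoded by Fkbp4, accompanies transport to the nucleus. Fkbp5 is itself a classical glucocorticoid-induced gene, so its transcript is widely used as a readout of receptor activity, and skin makes its own glucocorticoids in keratinocytes.

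The study asked how loss of glucocorticoid synthesis in keratinocytes differs when deletion is induced on the skin or through the body. The targeted gene, Cyp11b1, encodes the last enzyme on the way to corticosterone. The cKO mice were K14-CreERTam x Cyp11b1 L2/L2, in which the keratin 14 promoter drives a tamoxifen-inducible Cre in basal keratinocytes, and controls were Cre-negative Cyp11b1 L2/L2 littermates. All 20 mice received tamoxifen for 5 days. Systemic mice had intraperitoneal injections of 100 µl at 10 mg/ml in oil and ethanol, and topical mice (called local by the submitters) had 20 µl in ethanol on the ear and 100 µl on the shaved back. Keratinocytes of ear and dorsal skin were sorted on day 6 for bulk RNA sequencing, with 5 mice in each of the groups topical control, topical cKO, systemic control and systemic cKO. Route therefore differs together with dose, solvent and shaving, which cannot be told apart.

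The targeted gene gave no check of the labels. Cyp11b1 had 0 to 6 reads in each of the 20 libraries, with 9 reads in total in topical control, 7 in topical cKO, 2 in systemic control and 4 in systemic cKO. Esr1, the estrogen receptor alpha gene, did separate libraries. It was looked at because CreERTam is Cre fused to an estrogen receptor ligand-binding domain. Esr1 had 21 to 72 reads in the topical controls and 560 to 2583 in the topical cKO libraries. In the systemic cKO group it had 577, 76, 68, 1121 and 860 reads in replicates 2, 4, 5, 6 and 7, and in the systemic controls 22, 25, 67, 49 and 1800 reads in replicates 1, 3, 4, 5 and 6. The libraries labelled systemic cKO 4, systemic cKO 5 and systemic control 6 thus had the Esr1 level of the opposite genotype. Whether these Esr1 reads come from the transgene was not tested, and the libraries stay in the groups of their labels. Fold changes, ratios and calls that rest on systemic libraries are given with and without these 3, an alternative chosen after seeing the data, while levels per library and genes of similar pattern are given over all 20.

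**Figure D1:**
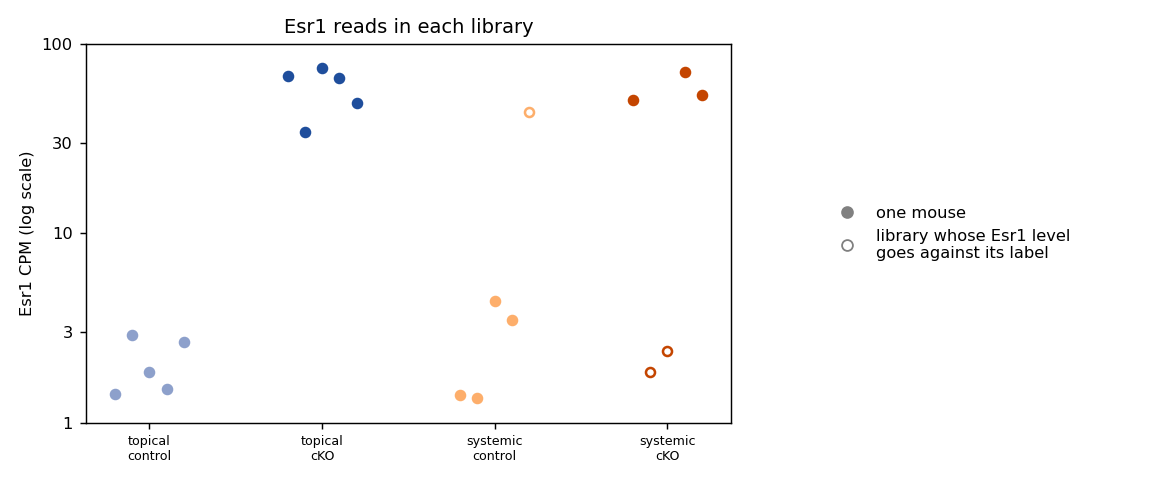
Esr1 level in each of the 20 libraries, in CPM (counts per M counts, log axis), by labelled group. Open circles mark the 3 systemic libraries whose level is that of the other genotype: systemic cKO 4 at 1.86 CPM, systemic cKO 5 at 2.39 CPM and systemic control 6 at 43.7 CPM.

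Library totals ran from 11.6 to 50.1 M counts. Keratinocyte identity was plain in all groups, with group means of 34284 to 52353 CPM for Krt14, whereas the leukocyte gene Ptprc averaged at most 0.055 CPM in any group, with 0 reads in 10 libraries, and the fibroblast gene Pdgfra at most 0.30 CPM, with 0 reads in 11. The 6 leukocyte markers summed to 5.90 to 30.6 CPM, nearly all of it Cd74, an antigen presentation gene, with group means of 9.53 CPM in topical control, 9.24 in topical cKO, 14.2 in systemic control and 18.2 in systemic cKO. The 6 fibroblast markers summed to 1.37 to 20.8 CPM in systemic libraries and to 1.45 to 32.0 CPM in topical ones. The 6 hair follicle markers, most of whose reads are Krt15, summed to 8450 to 14263 CPM in the 10 topical libraries and to 16085 to 29715 CPM in the 10 systemic libraries, with no overlap. By route, Krt15 was called higher in systemic than topical controls, with a log2 fold change of 1.25 (adjusted p = 0.00922), or 1.41 without the 3 libraries, and in cKO it was at 0.93 (adjusted p = 0.0686), or 0.72 without them. None of the other 5 was called in either genotype. All 5 had negative values in cKO, and Cd34 averaged 1.66 CPM in systemic against 2.62 CPM in topical controls. Lor, 1 of 4 suprabasal markers, was called higher in systemic cKO than in systemic control (2.62) and topical cKO (2.54), also without the 3 libraries. It averaged 19.7 CPM there and 3.16 to 3.51 CPM in the other groups. Averaged over genotypes, 2 suprabasal and 1 of 3 melanocyte markers tested were called higher by route, and 1 of 4 endothelial markers lower. In controls 1 melanocyte marker was called higher, and none without the 3. Transcripts of 12 satellite-like predicted genes summed to at least 79.4 CPM in all 5 systemic controls and systemic cKO 2, and to at most 42.5 CPM in the other 14. In bulk RNA, a change in the share of a cell type and a change in RNA per cell cannot be told apart.

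The 7 genes spanned a wide range of abundance, compared here as CPM per kilobase of annotated exon sequence, a level. Hsp90ab1, the constitutive cytosolic HSP90, was highest with 1099 ± 222 CPM per kb (mean ± SD, n = 20 mice). Fkbp4 followed with 70.4 ± 18.8, Stip1 with 35.1 ± 4.91 and Ptges3 with 25.9 ± 6.39 CPM per kb. The receptor Nr3c1 stood at 3.73 ± 0.641 CPM per kb, Fkbp5 at 0.320 ± 0.216 and the receptor Nr3c2 at 0.0879 ± 0.0459. The ranges over libraries did not overlap between Hsp90ab1 and Fkbp4, between Ptges3 and Nr3c1, or between Nr3c1 and Fkbp5. Stip1 (27.1 to 46.8) and Ptges3 (17.6 to 43.5) overlapped, as did Fkbp5 (0.0465 to 0.851) and Nr3c2 (0.022 to 0.174), while Fkbp4 (46.8 to 125) touched Stip1 at the edge. Spread over libraries also differed between genes. The coefficient of variation of CPM was 14.0% for Stip1, 17.2% for Nr3c1 and 20.2% for Hsp90ab1, against 52.2% for Nr3c2 and 67.5% for Fkbp5. Nr3c2 had 2 to 42 reads in a library and was under a detection floor of 3 reads in topical cKO 4 and topical control 6, so its levels carry large counting error.

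**Figure D2:**
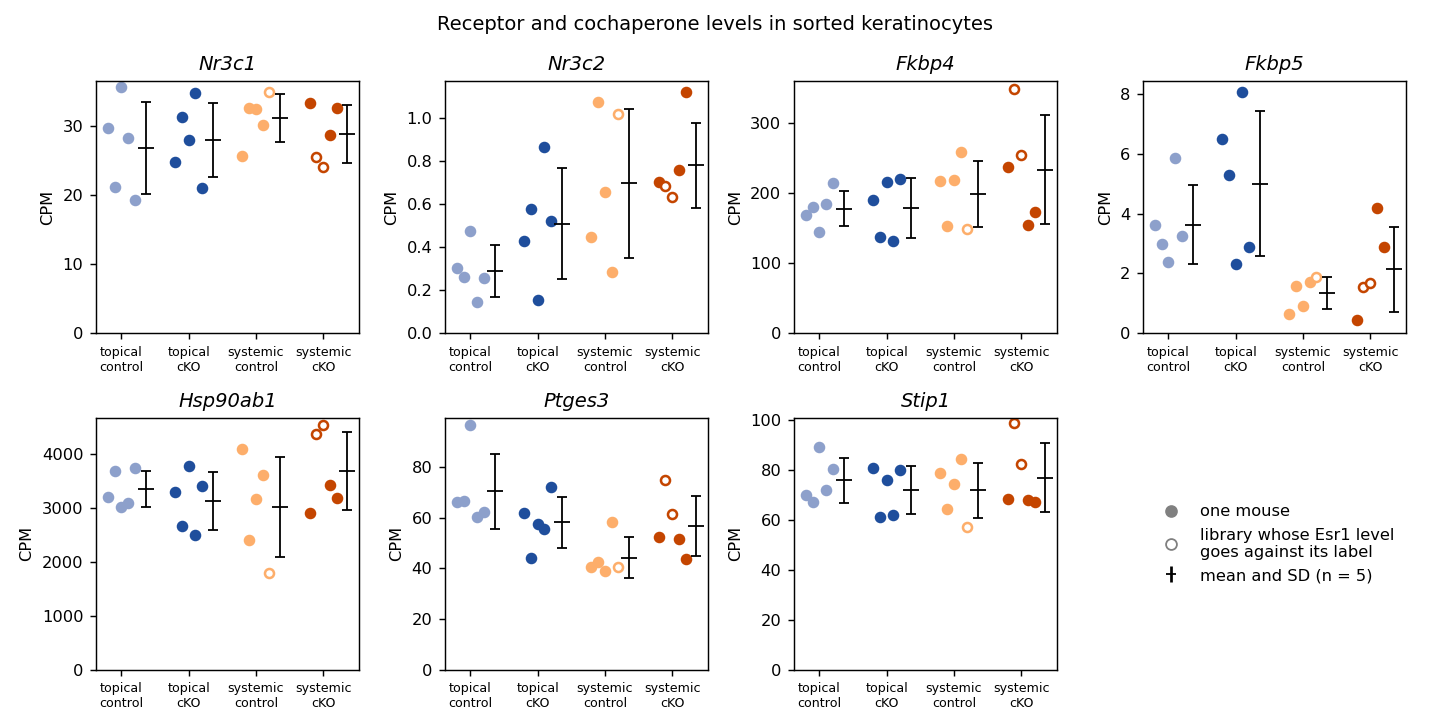
CPM of each of the 7 genes in each mouse by group, with a bar for the mean and SD (n = 5). Open circles are the 3 libraries whose Esr1 level goes against their label. All 5 systemic controls lie below all 5 topical controls for Fkbp5 and for Ptges3.

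None of the 7 genes was called between genotypes (called means an adjusted p under 0.05), by edgeR's quasi-likelihood test with Benjamini-Hochberg adjustment or by DESeq2, with either route. DESeq2's Wald test called 42 of 12424 genes on the skin and 559 after injection, and the shares that follow are edgeR's. On the skin, 0 of 7 were called where 0.129% of the 12424 genes tested were called, and 0 of 7 had an unadjusted p under 0.05 where 5.66% of all genes did. After injection, 0 of 7 were called against 1.89% of all genes, and 1 of 7, Ptges3, had an unadjusted p under 0.05 against 15.3%. The systemic count was again 0 of 7 without the 3 libraries, while the number of genes called over the whole table fell from 235 to 21.

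Nr3c1 (ENSMUSG00000024431, chromosome 18), whose product binds corticosterone in most cells, had levels that overlapped in all groups. In topical control mice 1, 3, 5, 6 and 7 it was at 29.6, 21.1, 35.7, 28.3 and 19.3 CPM, and in topical cKO mice 2, 3, 4, 5 and 7 at 24.8, 31.3, 27.9, 34.8 and 21.1 CPM. In systemic control mice 1, 3, 4, 5 and 6 it was at 25.6, 32.6, 32.4, 30.2 and 34.9 CPM, and in systemic cKO mice 2, 4, 5, 6 and 7 at 33.4, 25.5, 24.0, 28.7 and 32.6 CPM. Controls and cKO covered the same range by both routes. The log2 fold change of cKO against control was 0.066 (SE 0.16, 95% interval -0.28 to 0.41) on the skin and -0.11 (SE 0.16, interval -0.46 to 0.23) after injection, where it was 0.063 without the 3 libraries. These intervals leave out a doubling or a halving of the transcript.

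Nr3c2 (ENSMUSG00000031618, GRCm38 chr8:76899442-77245012, plus strand), whose product binds the same hormones with high affinity, had a higher mean in topical cKO (0.510 ± 0.258 CPM) than in topical control (0.289 ± 0.121 CPM), and these groups overlapped. Its log2 fold change was 0.88 (SE 0.44, interval -0.026 to 1.79, adjusted p = 0.900) on the skin and 0.099 (SE 0.39, interval -0.71 to 0.91, adjusted p = 0.939) after injection, or 0.46 without the 3 libraries. The difference between these effects was -0.78 (SE 0.58, adjusted p = 0.571), and -0.42 (adjusted p = 0.890) without the 3. Of its exon bases, 3.82% are shared with the antisense gene Gm10649, and without a stated strand setting reads of that stretch cannot be told apart.

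Among the chaperones, Hsp90ab1 (chr17:45567775-45573271, minus strand) had a log2 fold change of cKO against control of -0.098 (SE 0.23) on the skin and 0.29 (SE 0.23) after injection. Stip1, the adaptor between HSP70 and HSP90, had -0.074 (SE 0.15) and 0.099 (SE 0.15). Fkbp4, whose product links the receptor complex to dynein, had 0.0044 (SE 0.23) and 0.23 (SE 0.23). The systemic values of Hsp90ab1, Stip1 and Fkbp4 were -0.066, -0.16 and -0.17 without the 3 libraries, each of the opposite sign. Fkbp5 was above 0 by both routes, at 0.50 (SE 0.40, interval -0.32 to 1.33, adjusted p = 0.997) on the skin and 0.64 (SE 0.43, interval -0.26 to 1.54, adjusted p = 0.524) after injection, and 1.08 (adjusted p = 0.564) after injection without the 3 libraries. Both intervals include 0 and a doubling.

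Ptges3 had the smallest p of the members for a difference in genotype effect between routes, without passing the adjusted threshold. Its log2 fold change was -0.28 (SE 0.17) on the skin and 0.36 (SE 0.17, unadjusted p = 0.0465, adjusted p = 0.315) after injection, or 0.13 without the 3 libraries. The difference between them was 0.64 (SE 0.24, interval 0.13 to 1.14, unadjusted p = 0.0154, adjusted p = 0.228). No member was called for this difference, by edgeR or DESeq2, where edgeR called 0.25% of all genes and DESeq2's Wald test 321 of 12424. By edgeR 1 of 7 had an unadjusted p under 0.05 against 14% of all genes. Leaving out the 3 libraries gave a Ptges3 difference of 0.40 (adjusted p = 0.674).

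**Figure D3:**
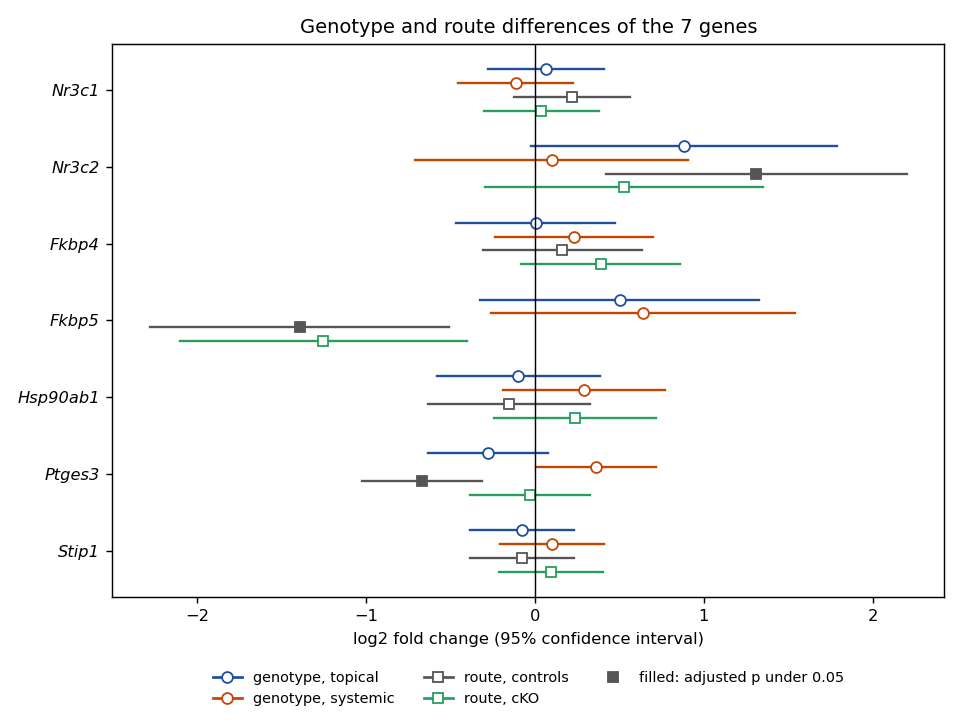
Log2 fold changes of the 7 genes with 95% confidence intervals from the fit across 12424 genes, for cKO against control by each route (circles) and systemic against topical within each genotype (squares). Filled symbols have an adjusted p under 0.05, and only Nr3c2, Fkbp5 and Ptges3 in the controls have one.

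Route of tamoxifen went with larger differences. Fkbp5 and Ptges3 were lower and Nr3c2 was higher in systemic than in topical controls, so 3 of 7 members were called where 18.3% of all genes were (10.2% higher and 8.16% lower). Within cKO mice 0 of 7 were called where 9.22% were, by edgeR. DESeq2's Wald test called 1 of 7, Fkbp5, where it called 1543 of 12424 genes. By edgeR 1 of 7, again Fkbp5, had an unadjusted p under 0.05 against 23.1% of all genes. With the 3 libraries left out, 2 of 7 were called in controls, Fkbp5 and Ptges3, and 0 of 7 in cKO. Of 12582 genes tested then, 2039 were called in controls and 1170 in cKO. The marker sum that Krt15 dominates separated the routes, Cd74 was higher in systemic libraries averaged over genotypes (0.69, adjusted p = 0.0231, or 0.75 without the 3), and in the controls the satellite-like transcripts separated the routes too. Markers of suprabasal keratinocytes, melanocytes and endothelium called by route are given above. The part of Krt15, Cd74 and these other markers in the results was not tested. With a split at 50 CPM of the satellite-like transcripts as a covariate 1 gene of the whole table was called in controls, so route and the satellite-like transcripts cannot be told apart there.

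Fkbp5 (ENSMUSG00000024222, chr17:28399094-28517527, minus strand), encoding the cochaperone that lowers receptor affinity, had the largest change. In topical control mice 1, 3, 5, 6 and 7 it was at 3.63, 2.996, 2.39, 5.85 and 3.25 CPM, and in systemic control mice 1, 3, 4, 5 and 6 at 0.638, 1.56, 0.921, 1.72 and 1.87 CPM. All 5 systemic controls were below all 5 topical controls, a separation in the lower direction that 6.26% of genes showed. In topical cKO mice 2, 3, 4, 5 and 7 it was at 6.50, 5.30, 2.31, 8.06 and 2.87 CPM, and in systemic cKO mice 2, 4, 5, 6 and 7 at 0.440, 1.54, 1.69, 4.17 and 2.87 CPM. The cKO groups overlapped, because systemic cKO 6 and 7 were as high as the lower topical cKO mice.

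The systemic to topical log2 fold change of Fkbp5 was -1.39 in controls (SE 0.43, interval -2.28 to -0.51, adjusted p = 0.0275), a level 0.381 of the topical one. In cKO it was -1.25 (SE 0.41, interval -2.10 to -0.40, adjusted p = 0.0576). Averaged over genotypes, a contrast added after seeing the data in which 3 of 7 members (Fkbp5, Nr3c2 and Ptges3) and 27.4% of all genes were called, it was -1.32 (SE 0.30, adjusted p = 0.00254). These values were -1.57 (adjusted p = 0.0325), -0.999 (adjusted p = 0.193) and -1.28 (adjusted p = 0.00941) without the 3 libraries. The call in controls was lost when any of systemic control 1, 3 or 4 or topical control 6 was left out (adjusted p up to 0.0714), whereas the averaged call of Fkbp5 was kept in each of 20 such fits (-1.504 to -1.20). The averaged calls of Ptges3 (-0.35, adjusted p = 0.0358) and Nr3c2 (0.92, adjusted p = 0.0238) were lost in 11 and 2 of those 20 fits, and that of Nr3c2 also without the 3 libraries (adjusted p = 0.0503). With log2 satellite-like CPM as a covariate none of the 3 averaged calls was kept, and Fkbp5 was at -1.04 (adjusted p = 0.0657). Ptges3 was then at -0.31 and Nr3c2 at 0.78. With the split at 50 CPM as the covariate the averaged value of Fkbp5 turned to 0.035 (adjusted p = 0.988), with Ptges3 at -0.27 and Nr3c2 at 1.01. The highest Fkbp5 library, topical cKO 5, also had the highest fibroblast marker sum (32.0 CPM), and without it the cKO value was -1.01 (adjusted p = 0.183). The part of those markers in the result was not tested.

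Because Fkbp5 carried the largest change and is known as a receptor target, the 250 bases before its RefSeq start (GRCm38.p6 chr17:28486150-28486399, minus strand, which lies within the longer annotated gene and outside its exons) are shown, with CCAAT boxes on either strand in capitals.
Fkbp5: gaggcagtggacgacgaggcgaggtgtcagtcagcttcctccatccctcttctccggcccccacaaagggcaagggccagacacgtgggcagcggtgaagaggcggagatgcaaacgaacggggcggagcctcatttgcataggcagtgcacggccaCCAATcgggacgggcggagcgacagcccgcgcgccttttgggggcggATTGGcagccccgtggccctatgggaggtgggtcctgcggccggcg
AGAACA, the unit repeated in the glucocorticoid response element, was searched on both strands in such windows of Fkbp5, Fkbp4, Ptges3, Stip1 and Nr3c2, and it was in none of the 5. It is in 16.1% of the windows of 32851 RefSeq promoters. A window of this size says nothing about more distant sites.

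Ptges3 (ENSMUSG00000071072, chr10:128058954-128077272, plus strand), encoding p23, was lower in systemic than topical controls and did not differ by route in cKO beyond its error. Topical control mice 1, 3, 5, 6 and 7 had 66.2, 66.5, 96.3, 60.4 and 62.2 CPM, and systemic control mice 1, 3, 4, 5 and 6 had 40.5, 42.4, 39.1, 58.4 and 40.6 CPM. The groups did not overlap, although systemic control 5 came close to the lowest topical control. Topical cKO mice 2, 3, 4, 5 and 7 had 61.7, 44.1, 57.4, 55.4 and 71.9 CPM, and systemic cKO mice 2, 4, 5, 6 and 7 had 52.5, 74.8, 61.3, 51.6 and 43.6 CPM, which overlapped throughout. The log2 fold change was -0.67 in controls (SE 0.17, interval -1.03 to -0.31, adjusted p = 0.0101), or to 0.629 of the topical level, and -0.032 in cKO (SE 0.17, interval -0.39 to 0.32, adjusted p = 0.936). It was -0.64 (adjusted p = 0.0164) and -0.24 (adjusted p = 0.420) without the 3 libraries. The call in controls was kept in all 10 fits that left out 1 library (-0.79 to -0.53). The annotation holds a processed copy, Ptges3-ps, on chromosome 6 that has no row in the count table, so reads of one that match the other could have been assigned to either or dropped.

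Nr3c2 rested on few reads in this comparison. Topical control mice 1, 3, 5, 6 and 7 had 6, 5, 7, 2 and 7 reads, or 0.302, 0.263, 0.478, 0.143 and 0.259 CPM. Systemic control mice 1, 3, 4, 5 and 6 had 7, 20, 10, 4 and 42 reads, or 0.447, 1.08, 0.658, 0.286 and 1.02 CPM. The groups overlapped, since systemic controls 1 and 5 were within the topical range. The log2 fold change was 1.31 in controls (SE 0.43, interval 0.42 to 2.20, adjusted p = 0.0375) and 0.53 in cKO (SE 0.40, interval -0.30 to 1.35, adjusted p = 0.459). Without the 3 libraries the values were 1.11 (adjusted p = 0.122) and 0.69 (adjusted p = 0.355), and the control call was lost in 7 of 10 fits that left out 1 library. Systemic control 6, which holds 42 of these reads, is among the 3 libraries that go against their labels.

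The remaining 4 members were not called by route in the fit without covariates (Fkbp4 was, averaged over genotypes, with the mitochondrial covariate). In controls the log2 fold changes were 0.22 for Nr3c1 (SE 0.16), 0.16 for Fkbp4 (SE 0.23), -0.15 for Hsp90ab1 (SE 0.23) and -0.077 for Stip1 (SE 0.15). In cKO they were 0.039, 0.39, 0.24 and 0.096 in the same order, with the smallest adjusted p at 0.318 for Fkbp4 (interval -0.081 to 0.86). Left without the 3 libraries, the control values were 0.17, 0.25, -0.012 and -0.0049 and the cKO values 0.17, 0.076, 0.020 and -0.088, again in that order. The library labelled systemic cKO 4 held the highest Fkbp4 level of all 20, 348 CPM, and without it alone the Fkbp4 value in cKO was 0.20 (adjusted p = 0.592).

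Ratios of 2 genes within a library do not depend on its scaling, and 2 were compared by exact two-sided permutation tests over mice, 8 tests in all with a smallest possible p of 0.00794. The log2 ratio of Fkbp5 to Fkbp4, which encode the exchanging immunophilins, was -5.66 ± 0.434 in topical control and -7.25 ± 0.849 in systemic control (mean ± SD, n = 5 each). There was 1 Fkbp5 read for 50.5 Fkbp4 reads in the former and 1 for 152 in the latter. The groups did not overlap, and the difference of -1.59 had an exact permutation p of 0.00794, adjusted 0.0635. This is the smallest possible p, and a lone test at it is adjusted to 0.0635, so it could not pass among 8 tests. In cKO the ratio was -5.26 ± 1.07 with topical and -7.01 ± 1.495 with systemic treatment, a difference of -1.75 (exact permutation p = 0.0794, adjusted 0.159) with overlap. Without the 3 libraries the differences were -1.83 (exact permutation test, adjusted p = 0.127) and -1.41 (adjusted p = 0.429). With fewer mice the smallest possible p is larger, so the 0.127 does not mark a weaker difference.

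The log2 ratio of Nr3c2 to Nr3c1 weighs one receptor against the other. It was -6.45 ± 0.504 in topical control, -5.84 ± 0.791 in topical cKO, -5.56 ± 0.653 in systemic control and -5.18 ± 0.235 in systemic cKO. The route differences of 0.89 in controls and 0.66 in cKO each had an exact permutation p of 0.0476, adjusted 0.127. None of the 8 tests passed after adjustment, which a lone test could not do at this group size. The genotype differences of both ratios had adjusted p-values of 0.305 to 0.754. Without the 3 libraries the route differences of this ratio were 0.77 and 0.68 (exact permutation test, adjusted p = 0.381 each). The systemic genotype differences were then 0.82 for Fkbp5 to Fkbp4 and 0.52 for Nr3c2 to Nr3c1.

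**Figure D4:**
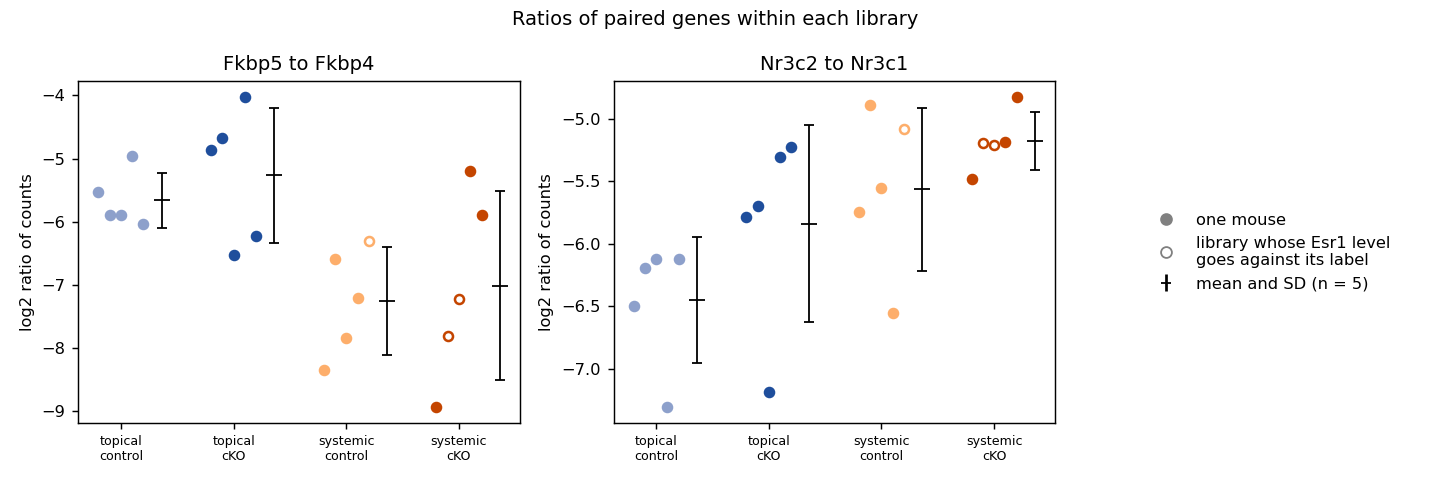
Log2 ratio of counts of Fkbp5 to Fkbp4 (left) and of Nr3c2 to Nr3c1 (right) in each mouse by group, with mean and SD (n = 5). The Fkbp5 to Fkbp4 ratio of the systemic controls lies below that of the topical controls in every mouse, from -8.34 to -6.30 against -6.03 to -4.96.

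After group means were removed, Stip1, Fkbp4 and Hsp90ab1 varied together over the 20 libraries. Pearson's r of log2 CPM was 0.77 for Fkbp4 with Stip1, 0.75 for Fkbp4 with Hsp90ab1 and 0.75 for Hsp90ab1 with Stip1. Ptges3 reached such a value with Stip1 (0.76) but had 0.49 with Fkbp4 and 0.36 with Hsp90ab1. Both receptors had negative values with these 3, with r of -0.69 for Nr3c1 with Hsp90ab1 and -0.67 for Nr3c2 with Fkbp4. The values were weaker with Stip1, at -0.41 for Nr3c1 and -0.43 for Nr3c2. Fkbp5 did not share the pattern of Fkbp4 (r = -0.49). Over the 17 libraries that remain without the 3, r was 0.58 for Fkbp4 with Stip1, 0.68 for Fkbp4 with Hsp90ab1, 0.59 for Hsp90ab1 with Stip1 and 0.70 for Ptges3 with Stip1. It was then -0.695 for Nr3c1 with Hsp90ab1, -0.71 for Nr3c2 with Fkbp4 and -0.54 for Fkbp5 with Fkbp4. With Stip1 it was -0.25 for Nr3c1 and -0.36 for Nr3c2. These are descriptions over libraries that share depth and composition. The percent of mitochondrial counts, 1.87 to 7.49 over the libraries, correlated with the same residuals at -0.81 for Fkbp4, -0.81 for Hsp90ab1, -0.71 for Stip1 and 0.65 for Nr3c1, and at -0.76, -0.84, -0.58 and 0.65 over the 17. Its part in the pattern was not tested.

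**Figure D5:**
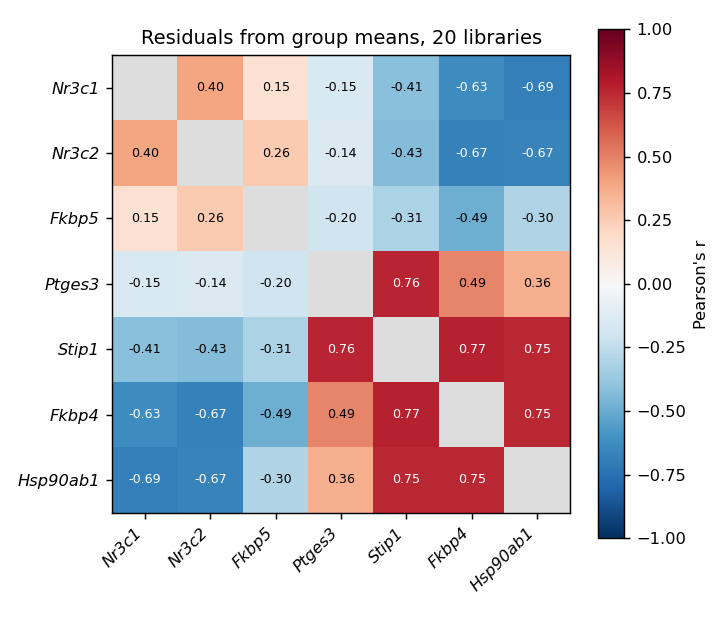
Pearson's r between pairs of the 7 genes over 20 libraries, from log2 CPM after subtracting each group's mean. Stip1, Fkbp4 and Hsp90ab1 form a block of values from 0.75 to 0.77, and both receptors have negative values with each of them.

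Since Stip1 and Fkbp4 varied together, the upstream sequence of Stip1 and 30 bases of that of Fkbp4 are shown. Stip1 (ENSMUSG00000024966, chr19:7020702-7039967, minus strand) has CCAAT boxes at 4 places in the 250 bases before its RefSeq start (GRCm38.p6 chr19:7040027-7040276, minus strand), in capitals. A CCAAT box on either strand is in 33.8% of promoter windows. Such boxes are also in the windows of Fkbp4 (76 to 72 bases before its start) and Nr3c2 (241 to 237, 188 to 184 and 12 to 8).
Stip1: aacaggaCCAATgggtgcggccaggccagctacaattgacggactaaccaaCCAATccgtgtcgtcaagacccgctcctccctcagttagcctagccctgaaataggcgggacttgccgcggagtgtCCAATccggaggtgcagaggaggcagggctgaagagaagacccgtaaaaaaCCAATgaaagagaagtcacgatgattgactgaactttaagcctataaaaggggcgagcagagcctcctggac
Fkbp4 (ENSMUSG00000030357, chr6:128429735-128438677, minus strand) and Nr3c2, which ran against it, each hold the heat shock element core GAANNTTC 151 to 144 bases before the RefSeq start. The 30 bases around it are given with the core in capitals (Fkbp4 chr6:128438789-128438818, minus strand, and Nr3c2 chr8:76902168-76902197, plus strand). Of the 250 bases before the start, 171 of Fkbp4 and 42 of Nr3c2 lie in annotated exons of any gene. The Nr3c2 window lies within the longer annotated gene.
Fkbp4: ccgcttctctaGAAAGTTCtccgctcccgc
Nr3c2: gacagcgacctGAACTTTCtggacatgtga
The core is in 6.69% of promoter windows, and its other arrangement, TTCNNGAA, which is in 7.17%, is in none of the 5 windows searched.

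For 6 of the members the 3 genes with the most similar residuals among 7842 genes of at least 5 CPM are given. Fkbp4 had Gas6, Puf60 and Psme2 (r of 0.96 each) and Stip1 had Tmem123, Dstn and Prps1l3 (0.94, 0.94 and 0.93). Nr3c1 had Klhl24, Smc5 and Rabep1 (0.86, 0.85 and 0.85), Nr3c2 had Dsel, Ect2 and Wdr11 (0.83, 0.82 and 0.82), and Ptges3 had Gtf2a2, Ddx1 and Fkbp3 (0.90, 0.89 and 0.89). Of these 6, the likeness was weakest for Fkbp5, with Mrpl16, Fut2 and Rnf121 (0.77, 0.76 and 0.76, Spearman's rho 0.64, 0.61 and 0.59).

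The wider pathway was described by lists. By genotype, none of 27 other HSP90 system genes, 15 HSP70 system genes, 12 receptor transport genes, 22 receptor coregulators and 15 glucocorticoid-induced genes was called with either route. On the skin 13 of the 15 glucocorticoid-induced genes had a positive fold change of cKO against control, with a median of 0.24 beside 0.020 over all genes, and none passed the test. After injection 10 of 15 were positive, with a median of 0.077, or -0.066 without the 3 libraries.

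By route in controls, 5 of 27 HSP90 system genes were called, beside 18.3% of all genes tested. Ppid, another HSP90-binding immunophilin, rose by 0.62 (SE 0.15), the HSP90 cochaperone Tsc1 by 1.08 (SE 0.30) and the ubiquitin ligase Stub1 by 0.53 (SE 0.17). St13, which binds HSP70 at the receptor's loading step, fell by 0.63 (SE 0.18) and Pih1d1 by 0.45 (SE 0.15). The median of the list was 0.012 beside 0.00081 over all genes. In cKO 2 of 27 were called, beside 9.22% of all genes, Tomm34 upward (0.45) and Ruvbl2 downward (-0.51). With the 3 libraries removed, the control values were 0.62 for Ppid, 0.99 for Tsc1, 0.59 for Stub1 and -0.56 for St13, all called, and -0.38 for Pih1d1 (adjusted p = 0.0759). In cKO, Tomm34 was then at 0.36 (adjusted p = 0.0625), and Ruvbl2 (-0.71) and Pih1d1 (-0.53) were called downward.

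Of 15 HSP70 system genes, 4 were called in controls, where 18.3% of all genes were. Dnajb1, the HSP40 that feeds substrates to HSP70 and a classical heat shock gene, rose by 1.79 (SE 0.32, adjusted p = 0.00071), from 1019 ± 256 CPM in topical to 3514 ± 1635 CPM in systemic controls (mean ± SD, n = 5). It was also the 1 gene of the list called in cKO, where 9.22% of all genes were, at 1.82 (SE 0.32, adjusted p = 0.00080), and without the 3 libraries the values were 1.96 and 1.82. Hspa1a rose by 0.91 and Dnaja1 by 0.57, and Dnajc7 fell by 0.53. Removing the 3 libraries gave 0.999, 0.59 and -0.54, all called, and added a call of Hspa1b (1.26). Hspa1a has a near-identical copy, Hspa1b, so how the counting split their reads is uncertain. Hsp90ab1 and Stip1, of the same folding path, had the values near 0 given above.

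Of 12 transport genes, the nuclear import receptor Ipo7 fell by 0.78 (SE 0.16) in controls as the 1 gene called, where 8.16% of all genes fell, and none was called in cKO. Removing the 3 libraries left Ipo7 at -0.75 (adjusted p = 0.00735), and the dynein heavy chain gene Dync1h1 was then called upward (0.64). Of 22 coregulators 6 rose and none fell in controls, where 10.2% of all genes rose and 8.16% fell, led by Ncoa3 (0.73), Ep300 (0.82) and Smarca4 (0.48), which encode a coactivator, an acetyltransferase and a chromatin remodeller. The list's median was 0.33 beside 0.00081 over all genes. The same 6 were called without the 3 libraries, with 0.79 for Ncoa3, 0.85 for Ep300 and 0.497 for Smarca4. In cKO only Med14 of this list was called (0.57, SE 0.15), or Med14 (0.63) and Ncoa3 (0.54) without the 3, where 9.22% of all genes were called with all libraries.

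Other glucocorticoid-induced genes were called in both directions by route in controls. In controls Ddit4 fell by 1.20 (SE 0.37, adjusted p = 0.0286) and the clock gene Per1 rose by 0.99 (SE 0.29, adjusted p = 0.0219), both known receptor targets. These were 2 of 15 called where 18.3% of all genes were. Of the 15 genes 9 had a negative fold change, with a median of -0.26 beside 0.00081 over all genes. In cKO none of the 15 was called, by edgeR, 7 were negative and the median was 0.072. Whether the list followed Fkbp5 as a group was not tested. Without the 3 libraries Per1 (1.08) and Dusp1 (0.88) were called upward in controls, and Ddit4 was at -1.09 (adjusted p = 0.0854). Reads of Hsd11b1 and Hsd11b2, whose products activate and inactivate corticosteroids in cells, were 0 to 20 and 0 to 6 in a library, too few for a comparison.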

How the data were processed

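Bulk RNA of sorted keratinocytes from 20 mice was sequenced from SmartSeq II libraries, per the labels' protocols. The authors deposited raw counts, whole numbers of reads per gene and mouse. The submitters' processing notes name STAR, featureCounts and the build GRCm38 (mm10); the annotation, strand setting and versions are not given in the sources used here. The members and gene lists were chosen with earlier results of these data known.

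A single model over the 20 libraries was used (edgeR 4.0.16 and R 4.3.3; TMM, filterByExpr with a minimum count of 10 and a minimum total of 15, robust quasi-likelihood, 1 coefficient per group), and p-values were adjusted by Benjamini-Hochberg over 12424 genes. CPM use TMM-scaled totals, except marker and satellite-like sums and marker levels, which use plain totals. Intervals are 95% and cover the spread between mice; reads without molecular identifiers are not independent molecules. Each mouse is 1 sample. All 7 members are described, with up to 3 called genes per list, direction and comparison by smallest adjusted p, and the 3 most similar genes per member (those of Hsp90ab1 are not reported here).

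Alternatives were DESeq2 1.42.0 (size factors, Wald test), other filters, fewer libraries, a replicate block, and satellite-like or mitochondrial covariates. The fit was tested on simulated data. Gene positions and exon lengths are from GENCODE M21 (GRCm38), and promoters from RefSeq GRCm38.p6, which held 5 of the members used here. Sequences of Nr3c1 and Hsp90ab1 were not used here.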

Additional observations from a re-analysis of the deposited data

Results flagged for a closer look

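In each group of 5 mice, the level of each member, of Esr1 and of both ratios was checked for a single mouse apart from the other 4 by Dixon's criterion. Of 40 such groups, 5 had one, and chance alone marks about 1 group in 20. Esr1 in the library labelled systemic control 6 was at 43.7 CPM, while the other 4 systemic controls were at 1.35 to 4.41 CPM. Ptges3 in systemic control 5 was at 58.4 CPM against 39.1 to 42.4 CPM in the other 4, and in topical control 5 at 96.3 CPM against 60.4 to 66.5 CPM. Both stand above their group, and without either the control route difference of Ptges3 was called. Nr3c2 in systemic cKO 7 was at 1.12 CPM against 0.632 to 0.758 CPM. The log2 ratio of Nr3c2 to Nr3c1 in topical cKO 4 was -7.18 against -5.78 to -5.22, with 2 Nr3c2 reads in that library.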

How the results depend on the processing

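Nr3c2 and Fkbp5 are limited by depth, with 2 to 42 and 5 to 316 reads per library, and 5 mice per group limit small effects. Over 720 fold changes of members under alternatives, 623 kept their direction and side of the threshold, 39 lost a call, 7 gained one and 51 changed sign. For the interaction and the averaged contrast only Fkbp5, Ptges3 and Nr3c2 are among the 720. The cause of these changes was not tested except where stated. Values without the 3 libraries that go against their labels, and the contrast averaged over genotypes, were chosen after seeing the data.

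Members called by route in controls numbered 3. They were 1 with a mean of at least 5 CPM required (Fkbp5 and Nr3c2 are then not tested), 0 with either satellite-like covariate, and 1 to 3 when 1 library was left out (1 without systemic control 3 or 4 or topical control 6). With the log2 satellite-like covariate 122 of 12424 genes were called, and Fkbp5 was at -0.72, Ptges3 at -0.60 and Nr3c2 at 1.01. With the split 1 gene was called, and Ptges3 was at -0.53 and Nr3c2 at 1.47. By route in cKO, 1 in place of 0 was called, Fkbp5, with the DESeq2 Wald test, the replicate block, the log2 satellite-like covariate or the mitochondrial covariate, and 0 to 1 when 1 library was left out (1 without systemic cKO 6, topical cKO 4 or topical cKO 7). Averaged over genotypes the count of 3 became 1 with the 5 CPM filter, 0 with either satellite-like covariate and 1 to 3 without 1 library (1 without systemic control 3 or 6). It was 2 with all genes with a count or without the 3 libraries. With the mitochondrial covariate it was 4, with Fkbp4 called too, where 4488 of 12424 genes were called. The genotype counts stayed at 0 in every alternative. With either satellite-like covariate 0 of 12424 genes were called for systemic genotype or for the interaction, so 0 members was fixed there. The same held for the interaction with the replicate block. With the mitochondrial covariate 1320 genes were called for systemic genotype, with Hsp90ab1 at 0.47 and Fkbp4 at 0.39, neither called.

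Sign changes were of values that were not called, except Fkbp5 by route with the satellite-like split over 50 CPM as a covariate, at 1.10 in controls and 0.035 averaged; the split is the same as the route in controls. With that covariate the systemic genotype values were -0.035 for Nr3c2, -1.63 for Fkbp5, -0.052 for Hsp90ab1, 0.099 for Nr3c1 and -0.075 for Stip1, the Fkbp5 interaction was -2.13, the control route values were 0.27 for Hsp90ab1, -0.051 for Nr3c1 and 0.14 for Stip1, and the cKO route value of Nr3c1 was -0.019. With log2 satellite-like CPM the systemic genotype values were -0.034 for Fkbp5, -0.0031 for Hsp90ab1, 0.11 for Nr3c1 and -0.076 for Stip1, the Fkbp5 interaction was -0.64, and the control route values were 0.21 for Hsp90ab1, -0.058 for Nr3c1 and 0.14 for Stip1. Without the 3 libraries the systemic genotype values were -0.17 for Fkbp4, -0.066 for Hsp90ab1, 0.063 for Nr3c1 and -0.16 for Stip1, and the cKO route value of Stip1 was -0.088.

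When 1 library was left out, these ranges crossed 0: systemic genotype, Nr3c2 -0.074 to 0.30 and Stip1 -0.0076 to 0.16; topical genotype, Fkbp4 -0.081 to 0.097 and Nr3c1 -0.034 to 0.19; cKO route, Ptges3 -0.15 to 0.057, Nr3c1 -0.045 to 0.13 and Stip1 -0.011 to 0.14; Fkbp5 interaction, -0.22 to 0.38. The Fkbp5 to Fkbp4 log2 ratio by systemic genotype was -0.020 as a difference in medians and -0.21 to 0.72 without 1 library.

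Replicate numbers were not taken to pair the mice. The 20 same-number pairs had a mean residual correlation of 0.058 (-0.30 to 0.50), beside -0.0091 for different-number pairs. Of 20 libraries, 3 matched best a library of their own number. With the replicate block, Fkbp4 on the skin was -0.21, the Fkbp5 interaction -0.11, and Nr3c2 lost its call in controls, leaving 2 members called.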
